A study of Mus musculus with 8 samples.

Results

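The mitochondrial fission and fusion genes examined here were Dnm1l, Fis1, Mff, Mief1, Mfn1, Mfn2, Opa1, Oma1 and Yme1l1, 9 of the 25929 genes in an RNA sequencing table of mouse hearts. They were chosen by name as genes of mitochondrial dynamics, and Ensembl identifiers were matched to mouse symbols. All 9 were listed once, were above 0 in every library and passed the filter on low values, which was 1 FPKM (fragments per kilobase of transcript, scaled to the library's mapped fragments) or more in at least 2 libraries. The 8 libraries came from 4 groups of 2 independent samples. WT-Sham and WT-TAC hearts were from wild-type C57BL/6 mice, and Fat1-Sham and Fat1-TAC hearts from transgenic fat-1 littermates, all 3 months old at surgery. The fat-1 transgene encodes a Caenorhabditis elegans desaturase that makes n-3 from n-6 polyunsaturated fatty acids, and its promoter is not given in the sources used here. TAC (transverse aortic constriction) tied a suture around the aorta to load the heart with pressure, and sham mice had the chest opened only. The study's abstract gives 8 weeks of constriction. The labels give ventricular tissue and the study's methods whole hearts, so the share of atrial tissue is uncertain.

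Mitochondria of the heart are cut and joined by large GTPases. Dnm1l encodes Drp1, a dynamin that is drawn from the cytosol to receptors on the outer membrane, among them the products of Mff, Fis1 and Mief1, and that constricts the organelle in fission. The mitofusins, made from Mfn1 and Mfn2, join outer membranes, and Opa1 joins inner membranes and shapes cristae. The proteases Oma1 and Yme1l1 cut long forms of Opa1 into short forms. Much of this control acts on the proteins by phosphorylation and cleavage, which mRNA levels do not record.

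The cardiomyocyte markers were abundant in all libraries, 1 library stood apart, and markers of other cells differed among the rest. Depth was 14163994 to 21218331 fragments per library. In WT-TAC1, all 10 cardiomyocyte markers (among them Myh6, Tnnt2 and Ttn) were at their lowest of the 8 libraries, with a geometric mean at 50.8% of the mean of the other 7 libraries. All 7 thymocyte markers were at their highest there, with a summed level of 1459 FPKM against 0.644 to 2.12 in the other libraries. At least 1 of Rag1, Dntt, Cd3e, Cd8b1 and Ptcra was listed at 0 in each of those 7. The summed level of the 8 airway epithelium markers was 3792 FPKM in WT-TAC2 and 1605 in WT-TAC1, against 50.4 in Fat1-Sham1 and 2.09 to 4.85 in the other 5 libraries. All 5 macrophage markers were highest in WT-TAC1, with summed levels of 423 FPKM there, 328 in WT-TAC2 and 176 to 251 elsewhere. Adipocyte markers summed to 771 FPKM in WT-TAC2, 542 in WT-TAC1 and 226 to 388 elsewhere. The summed hypertrophy markers Nppa, Nppb, Myh7 and Acta1 did not separate TAC from Sham. Their sum was 566 and 807 FPKM in WT-Sham and 671 and 698 in WT-TAC. In fat-1 hearts it was 552 and 733 after sham, and 775 and 570 after TAC. The share of fragments from mitochondrially encoded genes was 22.8% to 27.6% in 6 libraries, 19.3% in WT-TAC2 and 11.7% in WT-TAC1. In such bulk samples, fewer cells of a type and less RNA per cell cannot be told apart. The fold changes between WT-TAC and WT-Sham are therefore given with and without WT-TAC1. Without WT-TAC1 the group is WT-TAC2 alone, which has the airway markers. The part of these other tissues in the results was not tested.

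The mitofusins and Opa1 shared the order of their group means, without passing a test, as did other dynamics genes such as Mtfp1, Afg3l2 and Akap1. From high to low the order was Fat1-Sham, WT-Sham, Fat1-TAC and WT-TAC, and the share of all genes with it was not computed. For Mfn2 and Opa1 the order rests on WT-TAC1. In WT-TAC2 they had 321 and 73.2 FPKM, above the Fat1-TAC means of 309 and 72.1. The 250 bases upstream of the RefSeq transcription starts of Mfn1, Mfn2 and Opa1 are shown first. They lie at chr3:32529232-32529481 on the plus strand, chr4:147904699-147904948 on the minus strand and chr16:29579084-29579333 on the plus strand of GRCm38.p6, and are written 5′ to 3′ along the gene. Capitals mark matches on either strand to the NRF1 motif (GCGCA, any base, GCGC), CCGGAAGT (an ETS motif) and CCAAT.
Mfn1: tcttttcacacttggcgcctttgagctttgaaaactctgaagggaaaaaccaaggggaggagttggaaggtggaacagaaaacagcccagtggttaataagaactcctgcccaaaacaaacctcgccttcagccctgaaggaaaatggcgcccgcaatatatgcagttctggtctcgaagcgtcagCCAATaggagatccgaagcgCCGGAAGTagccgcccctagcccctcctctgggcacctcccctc
Mfn2: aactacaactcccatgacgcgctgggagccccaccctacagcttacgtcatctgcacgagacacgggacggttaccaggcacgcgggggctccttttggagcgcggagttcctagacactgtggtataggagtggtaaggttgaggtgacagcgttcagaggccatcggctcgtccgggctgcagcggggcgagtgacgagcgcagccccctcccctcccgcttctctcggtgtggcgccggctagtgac
Opa1: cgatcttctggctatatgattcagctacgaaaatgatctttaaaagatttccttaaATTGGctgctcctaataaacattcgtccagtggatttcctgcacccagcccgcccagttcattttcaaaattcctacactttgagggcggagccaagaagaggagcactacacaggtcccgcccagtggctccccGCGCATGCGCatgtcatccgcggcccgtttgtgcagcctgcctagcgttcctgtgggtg

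Opa1 had 1 NRF1 match at -59 to -50 from the start and 1 CCAAT match, Mfn1 had 1 ETS and 1 CCAAT match, and Mfn2 had none of these 3 motifs. NRF1 is a factor of nuclear genes for mitochondria. Its motif was found in the windows of 2 of the 9 members, Opa1 and Oma1, and in 3.74% of 32851 windows of the same length. The ETS motif was in 2 members, Mfn1 and Mief1, and in 2.88% of windows, and CCAAT in 5 members and 33.8% of windows. The GC box GGGCGG was in 8 members, all but Mfn2, and in 32.7% of windows. TGACG, the core of the cyclic AMP response element, was in 5 members and 17.8% of windows, with 3 matches in Mfn2. AANATGGCG, the YY1 motif, was in 1 member, Mfn1, and 1.12% of windows. No member had AAGGTCA (an estrogen-related receptor site, 4.08% of windows), its longer form TCAAGGTCA (0.387%), CACGTG (an E-box, 6.02%) or TGACGTCA (1.55%), and the shorter strings overlap the longer ones. These are matches of letters in 1 window per gene and show no binding.

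The members spanned a wide range of levels. By mean FPKM over the 8 libraries, Mfn2 was highest at 323, followed by Mfn1 at 248, Fis1 at 97.4, Opa1 at 73.0, Mff at 71.9, Yme1l1 at 53.0, Dnm1l at 32.0, Oma1 at 31.4 and Mief1 at 6.44. Neighbouring ranges overlapped for Mfn2 and Mfn1, for Opa1 and Mff, for Mff and Yme1l1 and for Dnm1l and Oma1. The order depends on the transcript length behind FPKM, which was 1334 bases for Mfn1 where its longest principal transcript has 4562. With the recovered fragments divided by the length of the longest principal transcript, the mean level was 179 for Mfn2, 90.7 for Fis1, 72.4 for Mfn1, 54.3 for Mff, 34.8 for Opa1, 32.6 for Dnm1l, 19.1 for Yme1l1, 15.1 for Oma1 and 4.87 for Mief1. On this scale Fis1 was above Mfn1 and Dnm1l above Yme1l1, so only comparisons of 1 gene between libraries are free of the length. The fewest fragments behind a value were 267, for Mief1 in WT-Sham1, a counting error of 6.12%, and the other members had at least 425. Counting errors cover sampling only, since fragments were not marked by molecular identifiers.

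**Figure D1:**
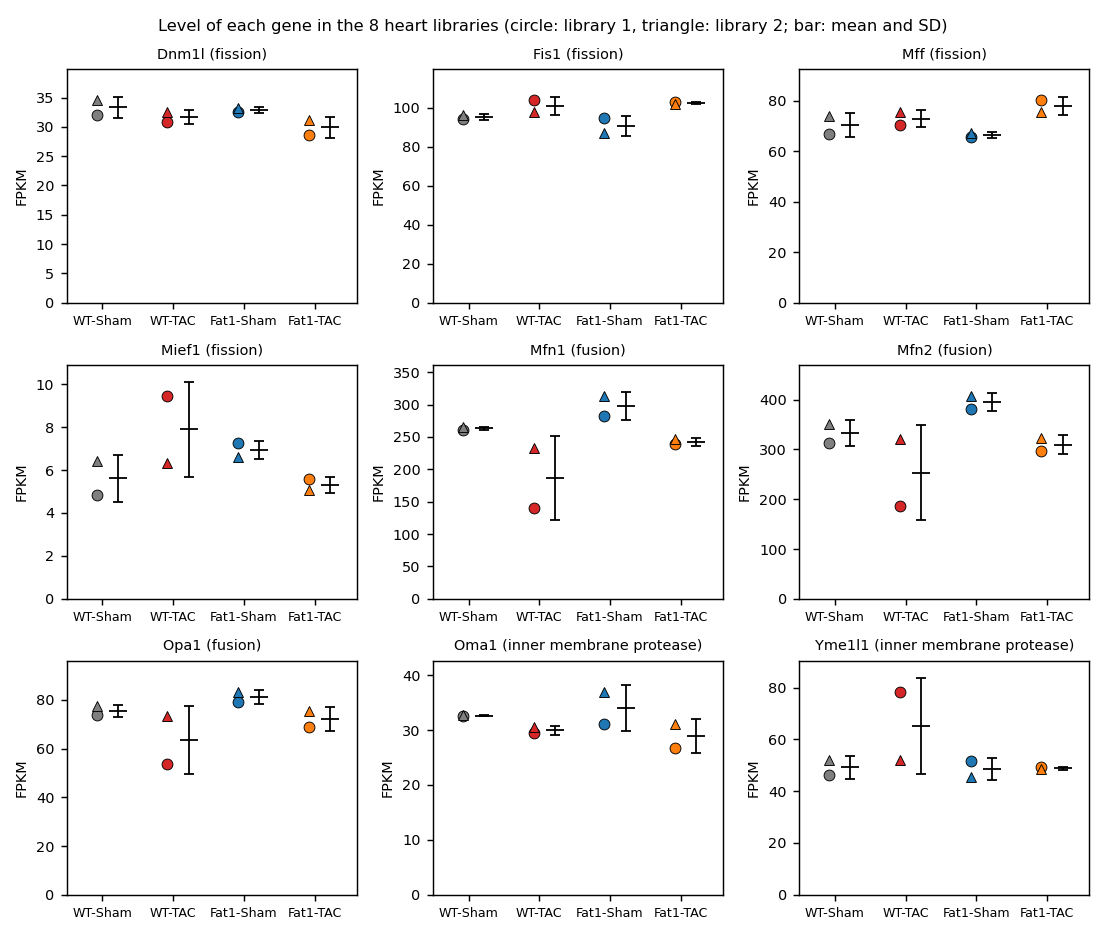
Level of each gene (FPKM, linear axis from 0) in the 8 libraries by group, with circles for library 1, triangles for library 2 and black bars for the group mean and SD (n = 2). WT-TAC1, the red circle, is the lowest point for Mfn1, Mfn2 and Opa1 and the highest for Fis1, Mief1 and Yme1l1.

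Among the fission genes, Dnm1l (ENSMUSG00000022789, chr16:16312230-16358959, minus strand) varied little in FPKM with surgery or genotype. It had 32.0 and 34.6 FPKM in WT-Sham, 30.9 and 32.6 in WT-TAC, 32.5 and 33.3 in Fat1-Sham, and 28.6 and 31.2 in Fat1-TAC. The highest library was 1.21 times the lowest, the WT groups overlapped, and both Fat1-TAC libraries lay below both Fat1-Sham libraries. The log2 fold change was -0.07 (SE 0.14, 95% confidence interval -0.39 to 0.26) in WT-TAC against WT-Sham, -0.03 without WT-TAC1 and 0.38 on the cardiomyocyte markers, and -0.13 (SE 0.14, -0.46 to 0.19) in Fat1-TAC against Fat1-Sham. The difference between these responses was -0.07 (SE 0.20, limma adjusted p = 0.857), and Fat1-TAC against WT-TAC gave -0.08 (SE 0.14, limma adjusted p = 0.661). The annotation places an antisense gene over 243 of the 5203 exonic bases of Dnm1l, and the library kit does not mark the strand.

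Fis1 (ENSMUSG00000019054, chr5:136953275-136966234, plus strand), a tail-anchored protein of the outer membrane, had 94.1 and 96.3 FPKM in WT-Sham, 104 and 97.8 in WT-TAC, 94.6 and 87.3 in Fat1-Sham, and 103 and 102 in Fat1-TAC. All 4 TAC libraries were above all 4 Sham libraries, as were those of 7.82% of all tested genes. The log2 fold changes were 0.08 (SE 0.13) in WT and 0.17 (SE 0.13) in fat-1 hearts, neither called, and the WT value was 0.04 without WT-TAC1 and negative in 3 of 4 other scalings of the libraries. Mff (ENSMUSG00000026150, chr1:82724890-82752394, plus strand), a tail-anchored receptor of Drp1, had 66.9 and 73.9 FPKM in WT-Sham, 70.6 and 75.3 in WT-TAC, 65.5 and 67.1 in Fat1-Sham, and 80.4 and 75.4 in Fat1-TAC. The WT groups overlapped, while both Fat1-TAC libraries were above both Fat1-Sham libraries and held the highest Mff levels of all. The WT difference was 0.05 (SE 0.13), 0.10 without WT-TAC1, and negative in 3 of 4 other scalings. The fat-1 difference was 0.23 (SE 0.13, limma adjusted p = 1) and stayed positive in all 4 other scalings.

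Mief1 (ENSMUSG00000022412, chr15:80234018-80253371, plus strand) encodes MiD51, another receptor that gathers Drp1. Its levels were 4.84 and 6.40 FPKM in WT-Sham, 9.46 and 6.33 in WT-TAC, 7.24 and 6.63 in Fat1-Sham, and 5.56 and 5.05 in Fat1-TAC. WT-TAC1 alone was high, at 157% of the mean of the other 7 libraries, and WT-TAC2 lay within the WT-Sham range. The log2 fold change was 0.41 (SE 0.24) in WT-TAC against WT-Sham, but 0.16 without WT-TAC1 and -0.14 with quantile normalization. It was -0.33 (SE 0.24) in Fat1-TAC against Fat1-Sham. Their difference, -0.75 (SE 0.35, 95% interval -1.56 to 0.07, limma adjusted p = 0.495), was the largest of the 9 members in that comparison and was -0.49 without WT-TAC1. Mief1 shares 213 of its 8106 exonic bases with a gene on the same strand, so part of its count is uncertain.

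Over all 8 libraries the outer membrane fusion genes had the largest spread of any member, 2.24-fold for Mfn1 and 2.20-fold for Mfn2, whereas over the 7 libraries without WT-TAC1 Mief1 had the largest and Mfn1 and Mfn2 spanned 1.35-fold and 1.38-fold. Mfn1 (ENSMUSG00000027668, chr3:32529465-32579239, plus strand) had 261 and 265 FPKM in WT-Sham, 140.3 and 233 in WT-TAC, 282 and 314 in Fat1-Sham, and 238 and 247 in Fat1-TAC. All 4 TAC libraries lay below all 4 Sham libraries, a pattern of 1.45% of tested genes. On the scale of the cardiomyocyte markers, log2 Mfn1 minus the mean log2 of the 10 markers was -3.18, -3.18, -3.10 and -3.16 in the Sham libraries and -3.34, -3.37 and -3.42 in WT-TAC2, Fat1-TAC1 and Fat1-TAC2. These 3 TAC libraries were again below all Sham libraries, as in 1.96% of tested genes on that scale. In FPKM that pattern of the 3 libraries was found in 2.44% of genes. WT-TAC1, at -3.17, was among the Sham values. The log2 fold change of FPKM was -0.54 (SE 0.23, 95% interval -1.09 to 0.01, limma adjusted p = 0.182) in WT and -0.29 (SE 0.23, limma adjusted p = 1) in fat-1 hearts. The WT value was -0.18 without WT-TAC1, and over the 4 other scalings it ran from -0.97 by the median of ratios to -0.08 on the cardiomyocyte markers, all negative. The fat-1 value ran from -0.32 to -0.25.

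Mfn2 (ENSMUSG00000029020, chr4:147873599-147904704, minus strand), which also tethers mitochondria to the endoplasmic reticulum, had 314 and 352 FPKM in WT-Sham, 186 and 321 in WT-TAC, 382 and 408 in Fat1-Sham, and 296 and 323 in Fat1-TAC. In WT hearts WT-TAC2 lay within the Sham range, whereas both Fat1-TAC libraries were below both Fat1-Sham libraries. The log2 fold change was -0.44 (SE 0.25, 95% interval -1.04 to 0.15) in WT hearts, and -0.05 without WT-TAC1. Over the 4 other scalings the WT value ran from -0.87 to 0.02, with the sign turned on the cardiomyocyte markers. In fat-1 hearts it was -0.35 (SE 0.25, -0.94 to 0.24), and between -0.38 and -0.31 in the 4 other scalings. Fat1-Sham libraries were also above WT-Sham libraries, by 0.25 (SE 0.25, limma adjusted p = 1).

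Opa1 (ENSMUSG00000038084, chr16:29579334-29654884, plus strand) followed the same order with a smaller range. It had 73.7 and 77.3 FPKM in WT-Sham, 53.4 and 73.2 in WT-TAC, 79.1 and 83.3 in Fat1-Sham, and 68.7 and 75.6 in Fat1-TAC. In each genotype both TAC libraries were below both Sham libraries, with WT-TAC2 only just below WT-Sham1. The log2 fold change was -0.27 (SE 0.18, 95% interval -0.68 to 0.15) in WT hearts, -0.04 without WT-TAC1, and -0.17 (SE 0.18, -0.58 to 0.24) in fat-1 hearts. Over the 4 other scalings the WT value ran from -0.69 to 0.19, positive on the cardiomyocyte markers only. The table gives gene totals, so the splice forms of Opa1 were not separated.

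The inner membrane proteases did not move alike. Oma1 (ENSMUSG00000035069, chr4:103313812-103371868, plus strand), a protease that acts under stress, had 32.6 and 32.7 FPKM in WT-Sham, 29.4 and 30.5 in WT-TAC, 31.0 and 37.0 in Fat1-Sham, and 26.8 and 31.1 in Fat1-TAC. The WT groups did not overlap, and the fat-1 groups did. The log2 fold changes were -0.12 (SE 0.16) in WT and -0.22 (SE 0.16) in fat-1 hearts, neither called, and the WT value was -0.09 without WT-TAC1 and 0.33 on the cardiomyocyte markers. Yme1l1 (ENSMUSG00000026775, chr2:23156369-23199260, plus strand), an ATP-dependent protease, had 46.1 and 52.2 FPKM in WT-Sham, 78.4 and 52.1 in WT-TAC, 51.7 and 45.6 in Fat1-Sham, and 49.4 and 48.6 in Fat1-TAC. WT-TAC1 was again apart, at 159% of the mean of the other 7 libraries. The log2 fold change of 0.37 (SE 0.21, limma adjusted p = 0.237) in WT hearts was 0.08 without WT-TAC1 and -0.05 by the median of ratios, and that in fat-1 hearts was 0.01 (SE 0.21).

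**Figure D2:**
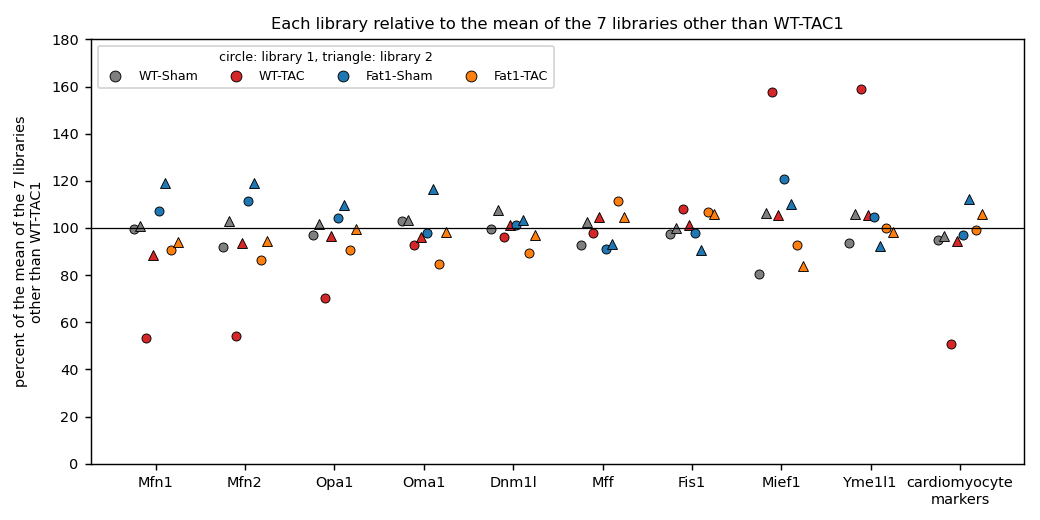
Each library as a percent (linear axis from 0) of the mean of the 7 libraries other than WT-TAC1, for the 9 genes and the geometric mean of 10 cardiomyocyte markers. In WT-TAC1 Mfn1 is at 53.4% and Mfn2 at 54.3%, beside the markers at 50.8%, and Mief1 and Yme1l1 are at 157% and 159%.

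In the library that stood apart, the members differed widely in level. Relative to the mean of the other 7 libraries, WT-TAC1 had 53.4% for Mfn1, 54.3% for Mfn2 and 70.5% for Opa1, next to 50.8% for the cardiomyocyte markers. Oma1, Dnm1l, Mff and Fis1 lay between 92.8% and 108%. WT-TAC1 was the lowest library for 3 members and for 15.6% of tested genes, and the highest for 3 members and for 58.1% of tested genes. Without it, the highest of the 7 libraries was at most 1.38 times the lowest for every member but Mief1, which spanned 4.84 to 7.24 FPKM.

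With TAC in wild-type hearts, 0 of the 9 members were called at a limma adjusted p under 0.1 and a change over 1.5-fold, and 0 had an unadjusted p under 0.05, which 25.7% of genes had with a higher and 1.81% with a lower mean. Of the 14442 tested genes 0.935% were called, of which 133 were higher and 2 lower. The WT groups did not overlap for Fis1, higher in TAC as in 52.5% of genes, and for Mfn1, Opa1 and Oma1, lower in TAC as in 7.09%. The means of 4 members were higher in WT-TAC, against 79.3% of all genes, and the median log2 fold change was -0.07 for the members and 0.39 for all genes. Scaled by the median of ratios, which moved the median of all genes from 0.39 to 0.02, the member median was -0.48, and scaled to the cardiomyocyte markers it was 0.38 with all genes at 0.80. The member median was below that of all genes under each of these scalings. Such scalings move both medians together, so they do not test the gap between them. The sign of the member median did not hold. By the median of ratios 5 members had an unadjusted limma p under 0.05 and 0 were called, where 23 of 14342 genes were called. The share of all genes at that unadjusted p was not computed under this scaling, so the 5 cannot be read as particular to the members. Without WT-TAC1, 0 members were called against 0.144% of genes, and the member median was -0.03. With WT-TAC1 as the only WT-TAC library, the log2 fold changes were 0.67 for Mief1, 0.67 for Yme1l1, -0.90 for Mfn1 and -0.84 for Mfn2. These 4 members were called there, against 50.5% of all genes called in either direction. Most of those genes were higher, so the pooled share is not a like background for the lower Mfn1 and Mfn2.

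In fat-1 hearts, 0 of 9 members were called with TAC, and 0 had an unadjusted limma p under 0.05, against 0.00692% of genes called and 1.65% higher and 0.928% lower at that p. The means of 3 members were higher, against 54.5% of genes. Both Fat1-TAC libraries were below both Fat1-Sham libraries for 5 members, Dnm1l, Mief1, Mfn1, Mfn2 and Opa1, a pattern of 21.5% of tested genes, and above them for Fis1 and Mff, a pattern of 26.8%. In both genotypes, each against its own Sham group, Mfn1 and Opa1 lay lower without overlap, as did 2.69% of genes, and Fis1 lay higher, as did 15.9%. No member lay higher in one genotype and lower in the other in this way, as did 7.93% of genes with WT-TAC higher and 1.26% with WT-TAC lower. The median of the members was -0.17 and that of all genes 0.02. Leaving out WT-TAC1, which enters this comparison only through the shared estimate of the spread, left the fold changes as they were and gave Mfn1, Mfn2 and Mff an unadjusted limma p under 0.05, with adjusted p = 0.37, 0.342 and 0.439. At that unadjusted level 4.89% of genes were lower and 6.34% higher, 0.0144% were called, and 0 members were called. A limma fit of the 2 fat-1 groups alone gave 4 members an unadjusted p under 0.05, and a per-gene test without moderation gave 2. Both called 0 members, and limma-voom on recovered fragments gave 0 of both. These fits called 0 of 14442 genes. The shares of all genes at the unadjusted p were not computed for them, so the 4 and 2 cannot be read as particular to the members.

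**Figure D3:**
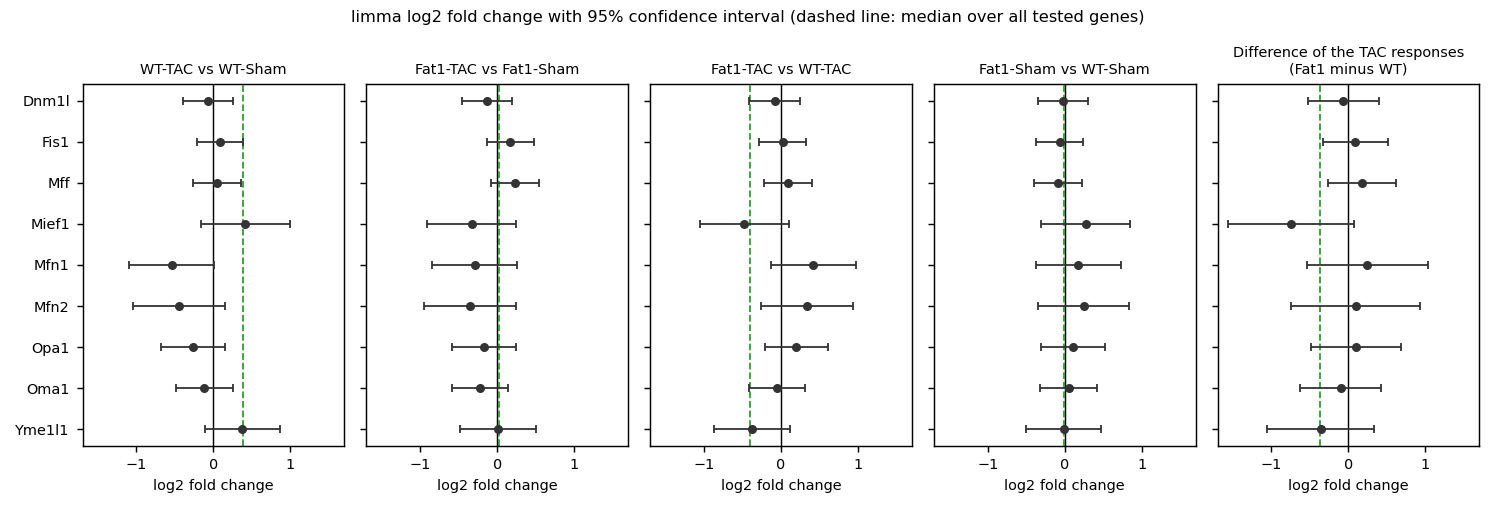
Fitted log2 fold change (points) with 95% confidence interval (bars) of the 9 genes in 4 comparisons and for the difference of the TAC responses, from limma on log2(FPKM + 1) with 8 libraries. The dashed line is the median of 14442 tested genes, at 0.39 in WT-TAC vs WT-Sham and -0.40 in Fat1-TAC vs WT-TAC, and every interval of the 9 genes includes 0.

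Between genotypes after TAC, 0 of 9 members were called and 0 had an unadjusted limma p under 0.05, against 1.43% of genes called and 2.44% higher and 27% lower at that p. The means of 5 members were higher, against 22% of genes. Both Fat1-TAC libraries were above both WT-TAC libraries for Mff and Mfn1, as in 9.33% of genes, and below them for Mief1 and Yme1l1, as in 57.1%. The largest differences were in Mief1 (-0.47, SE 0.24, limma adjusted p = 0.204), Mfn1 (0.42, SE 0.23, limma adjusted p = 0.225) and Yme1l1 (-0.38, SE 0.21, limma adjusted p = 0.223). Over the 4 other scalings these differences ran from -0.98 to 0.06, from -0.14 to 0.85 and from -0.93 to 0.04. They share the WT-TAC libraries with the WT comparison above, and without WT-TAC1 they were -0.22, 0.06 and -0.09, with 0 members and 0.18% of genes called. With WT-TAC1 as the only WT-TAC library, Mief1, Mfn1, Mfn2 and Yme1l1 were called, where 53.8% of genes were. In sham hearts, 0 of 9 members were called and 0 passed unadjusted, with 0% of all genes called and at an unadjusted p under 0.05 0.319% higher and 0.928% lower. The means of 5 members were higher, against 46% of genes, and the fitted differences ran from -0.08 for Mff to 0.27 for Mief1. Mief1, Mfn1, Mfn2 and Opa1 were higher in both Fat1-Sham libraries than in both WT-Sham libraries, as were 15.5% of tested genes, and 0 members were lower, against 16.5%. Scaled to the cardiomyocyte markers, Opa1 had a negative fitted difference (-0.02). The difference of the TAC responses was called for 0 of 9 members and passed unadjusted for 0, against 0.0692% of genes called and, at an unadjusted p under 0.05, 0.651% positive and 6.61% negative. Without WT-TAC1, 0 members and 0.0864% of genes were called, and with WT-TAC1 alone in its group, Mief1, Mfn1 and Yme1l1 were, against 45.8% of genes. In the fit of all libraries the difference was positive for 5 members and for 22.6% of genes. No member separated all 4 fat-1 from all 4 WT libraries, as 0.983% of genes did upwards and 4.56% downwards.

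Within a library, ratios of members do not depend on the scaling. The log2 ratio of Opa1 to Dnm1l (fusion to fission) was 1.20 and 1.16 in WT-Sham, 0.79 and 1.17 in WT-TAC, 1.28 and 1.32 in Fat1-Sham, and 1.26 and 1.27 in Fat1-TAC. The 4 TAC and 4 Sham libraries differed by -0.12 (exact permutation p = 0.457, two-sided, adjusted over 3 ratios 0.686), and by -0.01 without WT-TAC1. All 4 fat-1 libraries were above all 4 WT libraries, a split by genotype that was noticed after the values were seen and was not tested. The log2 ratio of Mfn2 to Mfn1 was 0.37 ± 0.08 (SD, n = 4) in Sham and 0.39 ± 0.06 (SD, n = 4) in TAC libraries, a difference of 0.02 (exact permutation p = 0.686, two-sided, adjusted 0.686). That of Yme1l1 to Oma1 was 0.55 ± 0.19 and 0.93 ± 0.34, a difference of 0.37 (exact permutation p = 0.0857, two-sided, adjusted 0.257), and 0.21 without WT-TAC1. The smallest p these 4 against 4 libraries allow is 0.0286.

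**Figure D4:**
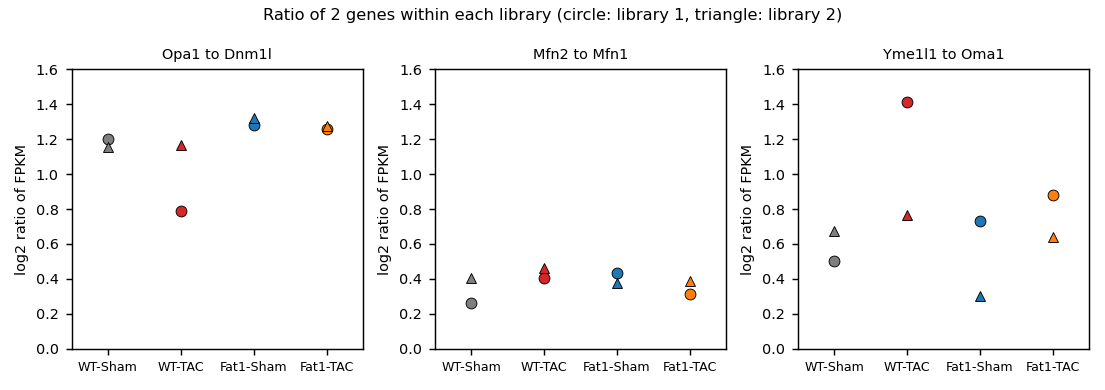
Log2 ratio of FPKM of a pair of genes in each of the 8 libraries by group, for Opa1 to Dnm1l, Mfn2 to Mfn1 and Yme1l1 to Oma1. WT-TAC1, the red circle, is lowest for Opa1 to Dnm1l at 0.79 and highest for Yme1l1 to Oma1 at 1.41, while Mfn2 to Mfn1 stays between 0.26 and 0.46.

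The profiles most like those of the central fission and fusion genes were sought among 9457 tested genes with a mean of 5 FPKM or more, by the root-mean-square distance of centred log2(FPKM + 1) over the 8 libraries. Nearest to Dnm1l were Rhot1 (0.038), Cops8 (0.039) and Sod1 (0.043), and nearest to Opa1 were Afg3l2 (0.038), Opa3 (0.038) and Oxnad1 (0.046). Among members, Oma1 was at rank 126 for Dnm1l and Mfn2 at rank 851 for Opa1. These are descriptions over 8 libraries that share WT-TAC1.

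Of 28 other genes of mitochondrial dynamics, 24 passed the filter and 0 were called in any of the 5 comparisons by limma. Gdap1, Mtfr2, Pld6 and March5 did not pass, the last listed at 0 in 6 libraries. The annotation behind the counts is not known, so the values of March5 do not show that the gene was silent. With TAC in wild-type hearts, 7 of the 24 had an unadjusted limma p under 0.05. Dnm2, Inf2, Miga1 and Chchd6 were higher, as were 25.7% of all genes at that p. Phb, Chchd3 and Akap1 were lower, as were 1.81%. Inf2, a formin that builds actin at fission sites, had 8.92 and 10.9 FPKM in WT-Sham, 16.0 and 16.7 in WT-TAC, 9.28 and 7.94 in Fat1-Sham, and 12.9 and 14.4 in Fat1-TAC. All TAC libraries were above all Sham libraries, as they were for Miga1 and for 7.82% of tested genes. The log2 fold changes were 0.67 (SE 0.18, limma adjusted p = 0.175) in WT and 0.61 (SE 0.18, limma adjusted p = 1) in fat-1 hearts. The WT value was 0.70 without WT-TAC1 and ran from 0.16 to 1.12 over the 4 other scalings. Akap1, an outer membrane anchor for protein kinase A, had 64.6 and 58.8 FPKM in WT-Sham, 34.7 and 49.6 in WT-TAC, 78.1 and 81.6 in Fat1-Sham, and 51.1 and 53.4 in Fat1-TAC. All TAC libraries were below all Sham libraries, as they were for Mtfr1 and for 1.45% of tested genes. The log2 fold changes were -0.56 (SE 0.19, limma adjusted p = 0.175) in WT and -0.60 (SE 0.19, limma adjusted p = 1) in fat-1 hearts. The WT value was -0.31 without WT-TAC1 and ran from -0.98 to -0.10 over the 4 other scalings.

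Dnm2, a dynamin of membrane scission, had a log2 fold change of 0.68 (SE 0.29, limma adjusted p = 0.181) in WT-TAC against WT-Sham, and 0.20 without WT-TAC1. Senp5, a SUMO protease, and Usp30, a deubiquitinase of the outer membrane, differed by -0.75 (SE 0.28, limma adjusted p = 0.164) and -0.75 (SE 0.23, limma adjusted p = 0.159) in Fat1-TAC against WT-TAC, and by -0.38 and -0.50 without WT-TAC1. In sham hearts the largest differences were those of Mul1, a mitochondrial E3 ligase (0.39, SE 0.19), and Akap1 (0.37, SE 0.19), both with a limma adjusted p of 1. At an unadjusted limma p under 0.05 were 3 of the 24 genes in fat-1 hearts with TAC, Inf2 higher and Mul1 and Akap1 lower. Of all genes 1.65% were higher and 0.928% lower there. After sham there were 0 of the 24, against 0.319% and 0.928%. Between genotypes after TAC there were 5 of 24, against 2.44% higher and 27% lower. Phb and Chchd3 were higher, and Chchd6, Senp5 and Usp30 lower. For the difference of the responses there was 1 of 24, Chchd6 with a negative value, against 0.651% positive and 6.61% negative.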

How the data were processed

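The authors extracted total RNA with TRIzol, made libraries with a NEBNext Ultra kit, which does not mark the strand, sequenced them on an Illumina HiSeq platform and deposited 1 table of FPKM per gene and library. HISAT2 and mm10 (GRCm38) are named in the submitters' processing notes, and the counting program, annotation and versions are not given in the sources used here. Genes were matched by Ensembl identifier to GENCODE M21, and 25852 of 25929 had a symbol. Depth was recovered from the FPKM steps, which gave whole fragments within 0.05 for 100% of genes. Groups were taken from the sample titles.

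FPKM values were tested with limma 3.58.1 (lmFit, eBayes with a trend, R 4.3.3) on log2(FPKM + 1), over all 8 libraries with 4 group means. The pseudocount understates changes of low genes. Genes with 1 FPKM or more in at least 2 libraries entered, p-values were adjusted by Benjamini-Hochberg over all of them, and a call needed an adjusted p under 0.1 and a change over 1.5-fold, after the study's cutoffs. The fit was tested on simulated data. Ratios were compared by exact permutation over the libraries (scipy 1.17.1), with 0.1 FPKM added. With 2 libraries a group, an exact permutation test cannot go below p = 0.333, so 4 TAC were set against 4 Sham libraries. The samples are labelled independent, and whether each is 1 animal is not given.

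Members, gene lists and tests were chosen with earlier results of these data known. The text names all 9 members, the other dynamics genes called or with the 2 largest changes in a comparison, and the 3 genes nearest to Dnm1l and Opa1. The 10 promoter motifs were chosen from general knowledge after the fits. Promoter sequences are from RefSeq (GRCm38.p6), in which all 9 members matched, using the start nearest a GENCODE principal transcript. Alternatives were other scalings, pseudocounts, filters, tests, a replicate block and leaving out each library.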

Additional observations from a re-analysis of the deposited data

Results flagged for a closer look

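Chchd6, Senp5 and Usp30, 3 of the other mitochondrial dynamics genes, were above both WT-Sham libraries in both WT-TAC libraries and below both Fat1-Sham libraries in both Fat1-TAC libraries, a pattern of 7.93% of tested genes. The difference of the TAC responses, Fat1 minus WT, was -0.65 (SE 0.28, limma adjusted p = 0.495) for Chchd6, a subunit of the cristae-organising complex, which had 6.11 and 7.96 FPKM in WT-Sham, 10.02 and 10.35 in WT-TAC, 6.73 and 7.21 in Fat1-Sham, and 5.95 and 6.22 in Fat1-TAC. It was -0.81 (SE 0.40, limma adjusted p = 0.495) for Senp5 and -0.73 (SE 0.32, limma adjusted p = 0.495) for Usp30. None of the 3 passed the test of this difference after adjustment, and without WT-TAC1 the values were -0.68, -0.45 and -0.48. No member showed the pattern.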

How the results depend on the processing

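Every count of called members and of called other dynamics genes was 0 under every alternative except leaving out WT-TAC2, which leaves WT-TAC1 to stand for its group and assumes that it varies like the other groups. Over the libraries left out in turn, these counts ranged from 0 to 4 members and 0 to 10 other genes in WT-TAC against WT-Sham, 0 to 4 and 0 to 8 in Fat1-TAC against WT-TAC, and 0 to 3 and 0 to 8 for the difference of the responses. The median log2 fold change of the members depended on the scaling wherever WT-TAC entered. In WT-TAC against WT-Sham it was -0.48 scaled by the median of ratios, -0.46 with quantile normalization, -0.24 without mitochondrially encoded genes and 0.38 scaled to cardiomyocyte markers. In Fat1-TAC against WT-TAC the same scalings gave 0.44, 0.38, 0.21 and -0.54, and for the difference of the responses 0.49, 0.35, 0.30 and -0.35. In sham hearts the cardiomyocyte scaling gave -0.071. Over the libraries left out, the median ranged from -0.052 to 0.047 in Fat1-TAC against WT-TAC, 0.049 to 0.14 in sham hearts and -0.12 to 0.10 for the difference of the responses. The 3 ratios kept their side of the threshold, an adjusted exact permutation p of 0.05, under every alternative. With a library left out, or permuted within genotype or replicate number, too few arrangements remain to go below it. Those alternatives could not have come out otherwise, and in the rest a single ratio could not have passed on its own.

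The deviations of libraries with the same number correlated between -0.14 and 0.02, which gave no sign that the numbers pair the samples. It cannot exclude pairing, since transcripts of other tissues enter these deviations. With the replicate block, 0 members were called in each comparison, and 52 genes in all in WT-TAC against WT-Sham in place of 135. With the numbers of Fat1-Sham crossed, an alternative added after seeing the data, the counts were 0 members and 53 genes. The 95% intervals of the members reach 0.30 to 0.59 to each side on the log2 scale in the comparisons of 2 groups and 0.42 to 0.84 for the difference of the responses, so most differences of this size cannot be told from 0 with 2 libraries a group. The counts of all called genes also moved: in WT-TAC against WT-Sham 23 by the median of ratios, 16 with quantile normalization, 33 with a pseudocount of 0.1, 293 without the filter, 30 by the per-gene test and 6 by limma-voom.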
